A study of Mus musculus with 9 samples.

Results

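Shisa2, Shisa3, Fhdc1, Prr5l, Rundc3b and Bmerb1 are 6 mouse genes whose signal was highest at embryonic stage E12.5 (in days after conception) in forelimb cells sorted for the Scx-GFP reporter. They were chosen by these same signals, because the signal rose from E11.5 to E12.5 and fell to E14.5, and they are 6 of 18193 genes measured. All 11 probe sets that the array annotation assigns to them are described here. The choice used no stated threshold. Levels around E12.5 are therefore given as a description, without a test, and only the difference between E11.5 and E14.5, whose sign the choice did not fix, was tested. The E11.5 and E14.5 arrays in that test are the ones used for the choice. Choosing a rise followed by a fall also favours a small difference between these stages.

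The 3 groups are E11.5, E12.5 and, after a longer step, E14.5, all from trypsin-dissociated forelimbs of Scx-GFP mouse embryos, with no other allele or treatment named. Scx is the gene of scleraxis, which marks the progenitors of tendons and ligaments. Each stage has 3 Affymetrix arrays, lettered A, B and C. The labels give neither the strain, nor the reporter's construct, nor whether separate litters were used within a stage. A p-value therefore measures only the spread between these samples, which may be technical. The reporter's GFP was the gate, 2 kinds of sorter were in use, and the labels do not say which sample met which.

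Scx was measured at 19338 ± 3927 (mean ± SD, n = 3) in E11.5 cells, 16656 ± 557 in E12.5 cells and 11152 ± 3339 in E14.5 cells. It was called as lower at E14.5 than at E11.5 (log2 difference -0.81, limma adjusted p = 0.0164). That call was lost when E11.5 B, E11.5 C or E14.5 B was omitted. With no unsorted or GFP-negative sample among the 9 arrays, these levels cannot check the sort. Values are MAS5 signals, a linear measure that the authors computed for each probe set, and their median over an array ranged from 68.7 to 118. Of the 18193 genes, 11575 were tested because their signal exceeded 90.6, the median of all signals, on at least 3 of 9 arrays. The representative probe set of every one of the 6 genes exceeded that value on all 9 arrays. The number of arrays limits the precision. In a bulk sample, fewer cells of a type and less RNA per cell cannot be told apart.

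The 6 genes belong to different protein families. Shisa proteins sit in the endoplasmic reticulum or at the membrane, and the founding members hold back the maturation of Frizzled and FGF receptors and so dampen Wnt and FGF signalling, both of which pattern the limb bud. Fhdc1 encodes a formin, a protein that assembles actin filaments and also acts on microtubules, and Prr5l encodes Protor-2, a partner of mTOR complex 2, the kinase complex that phosphorylates AKT, SGK and PKC family kinases. Rundc3b encodes a protein with a RUN domain, a fold found in partners of small GTPases, and Bmerb1 encodes a protein with a bMERB domain, which in the MICAL family binds Rab GTPases of membrane traffic.

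The promoters of Shisa2 and Shisa3 are shown because these 2 genes are relatives and each promoter holds a single E-box, the hexamer CANNTG bound by basic helix-loop-helix factors such as scleraxis. They run from 250 bases before to 50 bases after the gene's start, on the plus strand of GRCm38.p6, from RefSeq, with the E-box in capitals. Shisa2 lies at chr14:59625031-59625330 and Shisa3 at chr5:67607633-67607932.
Shisa2: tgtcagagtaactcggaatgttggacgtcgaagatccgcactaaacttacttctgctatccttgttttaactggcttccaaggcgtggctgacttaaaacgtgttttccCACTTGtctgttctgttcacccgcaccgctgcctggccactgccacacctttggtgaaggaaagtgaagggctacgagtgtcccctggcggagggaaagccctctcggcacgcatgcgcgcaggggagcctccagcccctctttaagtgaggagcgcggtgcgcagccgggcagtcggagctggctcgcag
Shisa3: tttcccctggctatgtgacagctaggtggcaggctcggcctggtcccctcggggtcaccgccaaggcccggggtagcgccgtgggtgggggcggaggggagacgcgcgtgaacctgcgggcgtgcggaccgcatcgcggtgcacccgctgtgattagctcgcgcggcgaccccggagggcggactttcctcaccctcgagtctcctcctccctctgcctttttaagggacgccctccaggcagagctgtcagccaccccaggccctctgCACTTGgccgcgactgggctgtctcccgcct
In both the E-box reads CACTTG, a form singled out after it was seen. It was present on either strand in 13.6% of 32851 RefSeq promoters of 300 bases, and CANNTG in 72.3% of them.

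Of the 6 genes, 5 had a promoter in that table, with 8 promoters among them. Fhdc1 had 1 E-box in its first promoter and none in its second, Prr5l had 3, 2 and 0 in its 3 promoters, with 1 CACTTG among the 3, and Rundc3b had none. The Tcf/Lef core CTTTGA, held by 16.0% of all promoters, occurred in 1 of the 8, a Prr5l promoter. The GC box GGGCGG was held by 35.7% of all promoters. Matches were found in Shisa3 (2), both Fhdc1 promoters (4 and 2), the first Prr5l promoter (1) and Rundc3b (9). Shisa2 and the other Prr5l promoters had none. The promoter of Rundc3b had a GC content of 71.7% against a median of 52.7% over all promoters. A TATA box, TATAAA, was found in 1 of the 8, the Prr5l promoter with the Tcf/Lef core, against 13.6% of all. Both strands were searched, and CACTTG is itself a CANNTG match. Bmerb1 had no entry.

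Shisa2, a Shisa family gene, nearly doubled its signal and then lost part of the gain. Its signal was 1686, 1424 and 1664 on the E11.5 arrays A, B and C, then 3004, 3172 and 2733 at E12.5, then 1953, 2515 and 1922 at E14.5. The 3 stages did not overlap: every E12.5 array lay above every E14.5 array, and every E14.5 array above every E11.5 array. The mean went from 1591 ± 145 to 2970 ± 222 and back to 2130 ± 334. That is a log2 difference of 0.90 ± 0.15 (standard error, SE) in the first interval, 1.87-fold, and of -0.49 ± 0.15 in the second, 1.40-fold. Its other probe set moved alike, from 1331 ± 253 to 2647 ± 249 and 1734 ± 289, with r = 0.985 between both over the 9 arrays, which share stage and library.

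Shisa3 had the largest fall of the 6 genes. Its signal was 375, 423 and 292 at E11.5, 865, 621 and 566 at E12.5, and 302, 341 and 273 at E14.5. Every E12.5 array lay above all others, while the E11.5 and E14.5 arrays overlapped. Array A at E12.5 stood above arrays B and C of that stage, and the E12.5 mean was 684 ± 159 against 363 ± 66.6 before and 306 ± 34.3 after. The log2 difference was 0.91 ± 0.20 (1.87-fold) and then -1.14 ± 0.20 (2.21-fold). The other probe set ran from 307 ± 48.0 to 564 ± 107 and 296 ± 30.5, a smaller fall of -0.92 ± 0.19, and r was 0.914 between both.

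**Figure D1:**
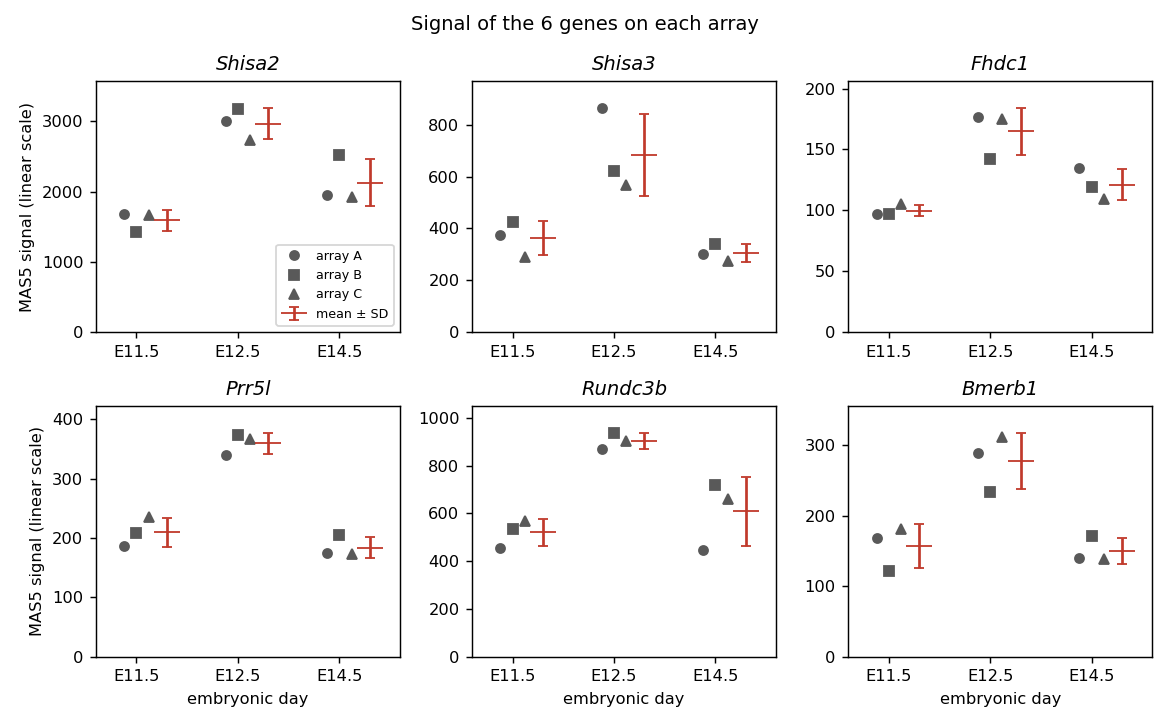
MAS5 signal (linear axis from 0) of Shisa2, Shisa3, Fhdc1, Prr5l, Rundc3b and Bmerb1 on each of 9 arrays by embryonic day, with symbols for the array letters and the stage mean with its SD (n = 3) in red. In each panel the 3 E12.5 arrays lie above the other 6. In Shisa2 and Fhdc1 the E14.5 arrays also lie above the E11.5 arrays, a separation that was not counted over all tested genes.

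Prr5l, the mTOR complex 2 partner gene, was higher at E12.5 than at both other stages. Its signal was 186, 208 and 235 at E11.5, 340, 373 and 367 at E12.5, and 175, 205 and 172 at E14.5. The E12.5 arrays stood apart from a common low range in which both other stages overlapped. The means were 210 ± 24.6, 360 ± 17.7 and 184 ± 17.8, and the log2 differences 0.79 ± 0.14 (1.72-fold) and -0.97 ± 0.14 (1.96-fold). A second probe set gave 181 ± 2.89, 304 ± 43.9 and 194 ± 22.2. The third, an _x_at set that can bind related sequences, was above 90.6 on 1 array only and was not tested, and its E12.5 arrays (87.6, 126 and 89.4) were again above the other 6.

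Fhdc1, the formin gene, changed least of the 6. Its signal was 96.7, 97.1 and 105 at E11.5, 177, 142 and 175 at E12.5, and 135, 119 and 109 at E14.5. The 3 stages did not overlap, though array C at E14.5 (109) was close to array C at E11.5 (105). The log2 difference was 0.72 ± 0.14 (1.65-fold) and then -0.44 ± 0.14 (1.36-fold). The second probe set of Fhdc1 did not show this shape: it lay below 22.7, the 25th percentile of all signals, on 6 of 9 arrays, its highest value was 55.0 on array C at E14.5, and it was not tested. The E12.5 maximum of Fhdc1 therefore rests on 1 probe set.

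Rundc3b, the RUN domain gene, had signals of 457, 536 and 568 at E11.5, 869, 937 and 904 at E12.5, and 446, 718 and 661 at E14.5. The E12.5 arrays were high and close together (904 ± 34.2), whereas the E14.5 arrays were spread out (608 ± 143), with array A below all E11.5 arrays and B and C between the stages. The log2 difference was 0.80 ± 0.19 (1.74-fold) and then -0.60 ± 0.19 (1.51-fold). Without E14.5 A the second difference was -0.39, a change of over 1.5 times.

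Bmerb1, the bMERB domain gene, had signals of 169, 122 and 181 at E11.5, 289, 233 and 312 at E12.5, and 140, 172 and 139 at E14.5. The lowest E12.5 array, B, was still above the highest E11.5 array, C, and the E11.5 and E14.5 arrays overlapped. The means were 157 ± 31.1, 278 ± 40.2 and 150 ± 18.7, and the log2 differences 0.83 ± 0.19 (1.78-fold) and -0.88 ± 0.19 (1.84-fold). Rundc3b and Bmerb1 each have 1 probe set.

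Across probe sets, 10 of the 11 had all E12.5 arrays above all E11.5 and E14.5 arrays, and in the same 10 E12.5 was highest within each of the letters A, B and C. All 6 genes showed this at their representative probe set, against 1.43% of the 11575 tested genes. Since the genes were chosen on it, the count describes the choice and nothing is read from it.

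**Figure D2:**
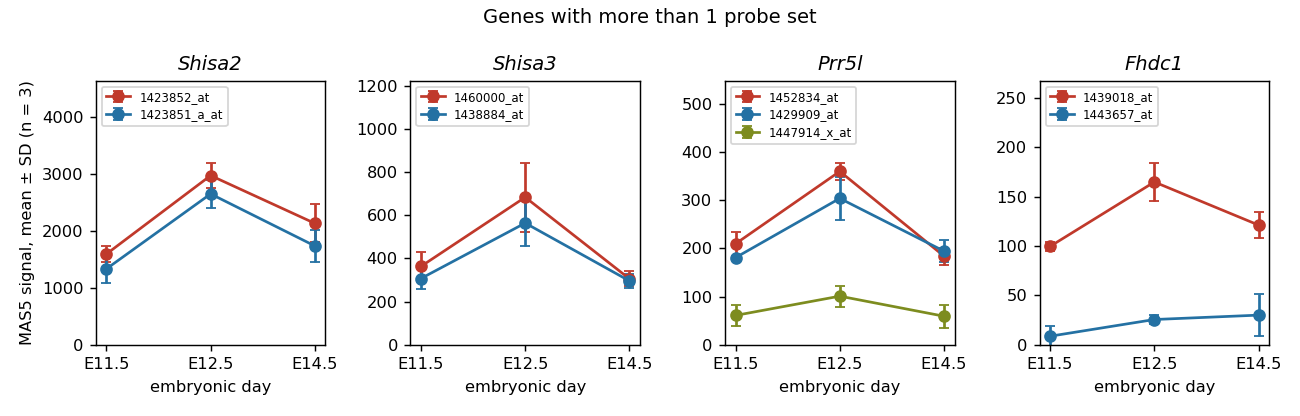
Mean MAS5 signal ± SD (n = 3, linear axis from 0) by embryonic day for every probe set of the 4 genes that have more than 1. Both sets of Shisa2 and of Shisa3 and all 3 of Prr5l peak at E12.5, while the dim second set of Fhdc1 does not.

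The order of the stages split the genes into groups of 3. In Shisa2, Fhdc1 and Rundc3b the order was E12.5, E14.5, E11.5, and in Shisa3, Prr5l and Bmerb1 it was E12.5, E11.5, E14.5. In the second group, and in Rundc3b, the E11.5 and E14.5 arrays overlapped, so these neighbours in the order do not differ beyond their spread. Whether the groups of genes differ was not tested.

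The last stage was set against the first to see whether the signals returned to where they started. With limma and Benjamini-Hochberg adjustment over the 11575 genes, 0 of the 6 genes were called at an adjusted p under 0.05, against 22.9% of tested genes called as higher and 17.7% as lower at E14.5. The 6 genes were chosen for a rise and then a fall, which favours a small net difference. The count of 0 is therefore a description, and nothing is read from its distance to these shares. At an unadjusted p under 0.05 the count was 1, Shisa2. The median log2 difference of the 6 was 0.08, and that of all tested genes 0.00345. limma with a trended and robust prior and limma with array weights each called 1 of the 6.

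Shisa2 kept the largest net difference, log2 0.41 ± 0.15 with a 95% interval of 0.08 to 0.75 and a limma adjusted p = 0.0506. Its call depends on the setting: the adjusted p was 0.0453 with the floor raised to the median of all signals, 0.04999 after quantile normalization, 0.0295 with the trended and robust prior, 0.0369 with array weights, and up to 0.684 after median centring of the arrays. Median centring moved the median of all tested genes to -0.20 and the difference of Shisa2 to 0.21. Its second probe set had 0.39 ± 0.19 (limma adjusted p = 0.154 over 20885 probe sets).

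Fhdc1 differed by 0.28 ± 0.14 (interval -0.04 to 0.59, limma adjusted p = 0.143) and Rundc3b by 0.20 ± 0.19 (-0.21 to 0.62, 0.418). Without E14.5 A the difference of Rundc3b was 0.41, with a limma adjusted p = 0.0532. Shisa3 differed by -0.24 ± 0.20 (-0.69 to 0.21, limma adjusted p = 0.377), Prr5l by -0.19 ± 0.14 (-0.49 to 0.12, 0.308) and Bmerb1 by -0.05 ± 0.19 (-0.47 to 0.37, 0.862). The intervals of these 5 genes include 0 but reach 0.37 or more in size on at least 1 side, so a return to the E11.5 level is not shown. For Prr5l the second probe set had the other sign, 0.10 ± 0.15 (0.675).

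**Figure D3:**
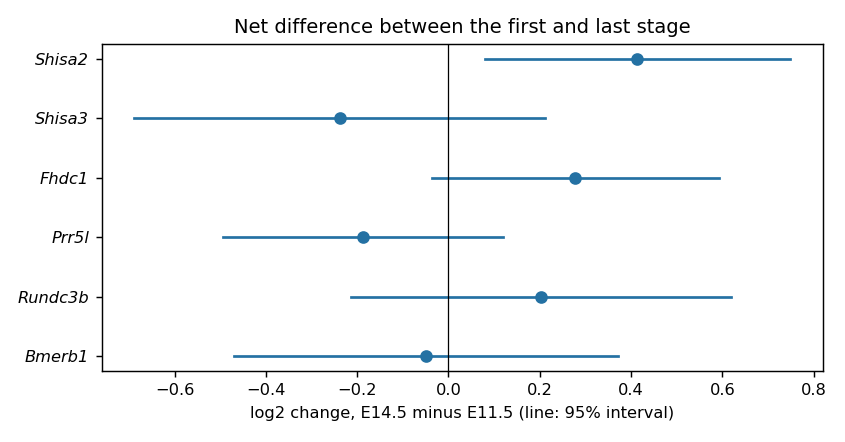
Log2 difference of E14.5 minus E11.5 for each gene (point) with its 95% interval from the limma fit (line). The interval of Shisa2, 0.08 to 0.75, lies above 0 and the other 5 include 0.

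Ranked by the smaller of the rise and the fall around E12.5, the 6 genes took places from 17 to 122 of 11575. They were chosen on this rise and fall, so a high place describes the choice. Shisa3 was in place 17 (0.91), Bmerb1 in 21 (0.83), Prr5l in 25 (0.79), Rundc3b in 56 (0.60), Shisa2 in 99 (0.49) and Fhdc1 in 122 (0.44). In all, 116 other genes had at least the value of Fhdc1. The first places went to Cysrt1, Fbxo44 and Eomes, with standard errors of 0.57 to 0.68: Eomes, a T-box gene, had 131, 22.2 and 199 at E11.5, 302, 213 and 304 at E12.5, and 67.5, 29.6 and 52.7 at E14.5.

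Outside the 6 genes, whose calls in these intervals would be tests on the values that chose them, 6 genes were called by limma both as higher in the first interval and as lower in the second. They are named after their values were seen. Aldh1a2, which encodes a retinoic acid synthesis enzyme, had 751, 567 and 700 at E11.5, 1864, 1522 and 1769 at E12.5, and 345, 625 and 547 at E14.5. Hoxd13, the homeobox gene of the distal limb, went from 5491 ± 725 to 10076 ± 794 and back to 5357 ± 176 (log2 0.88 ± 0.14 and -0.91 ± 0.14). Kcnmb4, a potassium channel subunit gene, went from 999 ± 294 to 1932 ± 190 and 932 ± 42.3, and Kcnmb4os2, named as its opposite-strand transcript, from 157 ± 21.4 to 340 ± 87.0 and 132 ± 32.9. Rfx4 went from 55.1 ± 18.6 to 113 ± 11.8 and 21.4 ± 2.29, and BC006965 from 58.2 ± 7.82 to 139 ± 26.1 and 51.0 ± 16.7. The call in the first interval was lost in 11 of 19 alternatives for Kcnmb4, 10 of 19 for Kcnmb4os2, 7 of 14 for BC006965, 6 of 14 for Rfx4, 4 of 19 for Hoxd13 and 2 of 19 for Aldh1a2. Omitting 1 array was enough for each: array C of E12.5 for Aldh1a2, B or C of E12.5 for Hoxd13, A or B of E11.5 for Rfx4 and BC006965, any of 7 arrays for Kcnmb4 and any of 6 for Kcnmb4os2. With the floor at the median of all signals the first log2 difference of Rfx4 was 0.32 and that of BC006965 0.60, and the second call of Rfx4 was lost.

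**Figure D4:**
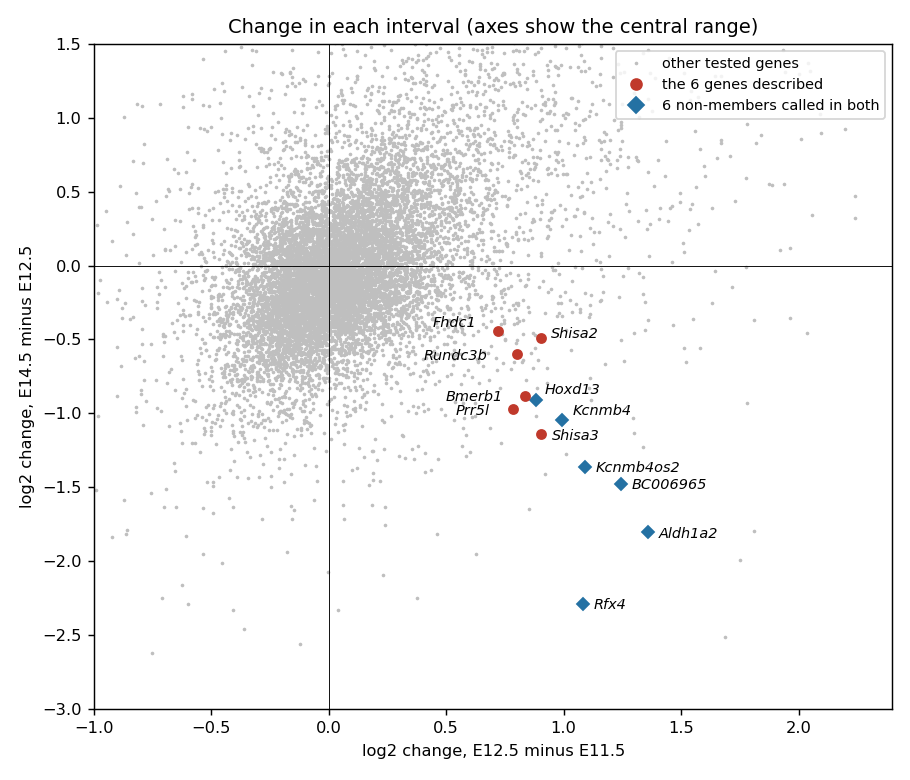
Log2 difference E12.5 minus E11.5 (x axis) against E14.5 minus E12.5 (y axis) for the tested genes (grey), the 6 genes described (red circles) and the 6 non-members called in both intervals (blue diamonds), with the axes limited to the central range. Both axes share the E12.5 arrays. The red genes lie at 0.72 to 0.91 on the x axis and -0.44 to -1.14 on the y axis.

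The genes most like each member were found by Pearson r of log2 signal over the 9 arrays, which share stage and letter. Stxbp6 was most like Shisa2 (r = 0.957) and Rundc3b (0.930), Akirin1 most like Shisa3 (0.956), Plk2 most like Fhdc1 (0.958), BC006965 most like Prr5l (0.958) and Glod4 most like Bmerb1 (0.976). r takes no account of size. Akirin1 and Glod4 differed by 0.26 ± 0.11 and 0.29 ± 0.12 in the first interval, well under the 0.72 to 0.91 of the 6 genes. Against the mean standardized profile of the 6, Akirin1 (0.941), Glod4 (0.940), Isca2 (0.937), Hoxd13 (0.932) and BC006965 (0.930) came first.

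Among themselves the 6 genes had r between 0.695 and 0.897 over the 9 arrays in their 15 pairs, which the choice of genes favours. With the stage means removed, r ran from -0.486 (Fhdc1 and Rundc3b) to 0.629 (Prr5l and Rundc3b). These r values rest on 9 arrays and were not tested, so nothing is read from their signs. Shisa2 and Shisa3 had 0.146.

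The neighbouring genes on the chromosome were taken from the RefSeq order of GRCm38.p6. Of the 12 nearest tested genes on either side, 0 had all E12.5 arrays above the rest, a shape that 1.43% of all tested genes had, so that none among 12 is near the background. Abcb4, next to Rundc3b, came nearest in its means (70.4, 98.7 and 74.5). In the second interval Bend4, next to Shisa3, was called as lower (log2 -0.96 ± 0.18, limma adjusted p = 0.00525). Its means were 960, 736 and 386, without a maximum at E12.5. Trim2 (0.81 ± 0.20, 0.0186) and Arfip1 (0.43 ± 0.12, 0.0352), both next to Fhdc1, were called as higher. Of all tested genes, 9.32% were called as lower and 12.6% as higher in that interval.

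Related genes that are no members were counted in 7 lists of 108 genes, of which 91 were tested. For genes of these lists, rose and fell mean called by limma at an adjusted p under 0.05. Of these, 2 rose, Sgk1 and Ndrg1, and 1 fell, Sp5, from E11.5 to E12.5 (2.2% and 1.1%, beside 3.11% and 0.441% of all tested genes). From E12.5 to E14.5, 17 rose and 7 fell (18.7% and 7.69%, beside 12.6% and 9.32%), and from E11.5 to E14.5, 25 rose and 7 fell (27.5% and 7.69%, beside 22.9% and 17.7%). The median log2 differences were 0.08, 0.11 and 0.14, beside 0.04, -0.05 and 0.00345 for all genes. Fmn2 and Micall2, 2.2% of the 91, had all E12.5 arrays above the rest, near the 1.43% of all tested genes. From E11.5 to E12.5, 0 of the 3 calls were kept in all alternatives. That of Sgk1 was lost in 11 of 19, among them the omission of any 1 E11.5 or E12.5 array. The call of Ndrg1 was lost in 9 of 19, among them the omission of E11.5 A or C or of any 1 E12.5 array.

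Of the other 4 tested Shisa family genes none was called in the first interval (median log2 difference 0.26, beside 0.04 for all genes). In that interval Shisa5 differed by 0.49 ± 0.16 (limma adjusted p = 0.145), Shisal1 by 0.33 ± 0.13 (0.2425), Shisa4 by 0.18 ± 0.32 and Shisa7 by -0.20 ± 0.39. From E11.5 to E14.5, Shisal1 (log2 1.26 ± 0.13, from 157 to 376) and Shisa5 (1.17 ± 0.16, from 1732 to 3872) rose (median of the 4, 0.71). Of 16 genes for Frizzled and FGF receptors and for the Wnt co-receptors Lrp5 and Lrp6, 5 rose, led by Fzd8 (1.56 ± 0.20) and Fzd5 (1.55 ± 0.18), and 2 fell, Fzd3 (-0.90 ± 0.29) and Fzd10 (-0.89 ± 0.21), over the same span (median 0.43). Of the 5, the calls of Fzd4 and Fgfr4 were lost after median centring and that of Fzd6 was not. Of 15 Wnt and FGF response genes 2 rose, Spry1 (1.74 ± 0.20) and Spry4, and 3 fell, Dusp6 (-1.67 ± 0.27), Etv4 (-1.42 ± 0.26) and Lef1 (-0.90), with a median of -0.16. Omitting array B or C of E11.5, or array A or B of E14.5, ended the Fzd3 call (adjusted p up to 0.105 over all alternatives), as did no filter and the mean of probe sets. That mean took the change of Fzd3 to -0.41 and that of Fzd10 to -0.44. The Lef1 call ended without array A or B of E11.5 or C of E14.5, without the letter A arrays and with array weights. With that mean and after median centring the Spry4 call was lost too.

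Sp5, a Wnt target gene, had the opposite shape to the 6 genes. Its signal was 62.1, 96.3 and 62.1 at E11.5, 23.8, 34.3 and 16.8 at E12.5, and 94.6, 91.8 and 124 at E14.5, so that its E12.5 arrays were all lowest. It fell by 1.44 ± 0.23 on the log2 scale (limma adjusted p = 0.0112) and rose by 1.95 ± 0.23 (5.0e-04). All these signals are low: with the floor at the median of all signals neither call held (0.963 and 0.386), and the fall was also lost without E12.5 C, without the letter A arrays, with no filter and with the trended and robust prior.

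Among 10 other formin genes 3 rose from E11.5 to E14.5 and none fell (median 0.08): Inf2 (log2 1.75 ± 0.17), Diaph2 (1.07 ± 0.20) and Fhod3 (0.38), the last lost in 9 of 19 alternatives, among them the omission of any E11.5 array or of E14.5 B or C. Fmn2 resembled Fhdc1 in its maximum, from 233 to 298 and 195, and fell in the second interval (-0.59, limma adjusted p = 0.0180), a call lost without E12.5 C or E14.5 B, without the letter A arrays, after median centring and with the mean of probe sets. Of 13 subunits and substrates of mTOR complex 2, 6 rose and 1 fell over the whole span (median 0.40), led by the transcripts of Ndrg1 (2.46 ± 0.16), whose protein is a substrate of SGK, and Deptor (2.19 ± 0.38), an mTOR inhibitor. Prr5, the closest relative of Prr5l, rose from 59.3 to 147 (1.46 ± 0.37, and 0.69 with the floor at the median), without a maximum at E12.5. Mtor fell (-0.48 ± 0.15), a call lost without E11.5 B, E14.5 B or the letter A arrays, after median centring and with the mean of probe sets. The Diaph2 call was lost after median centring and that of Prr5 after quantile normalization.

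Of 19 other RUN domain and Rap2 genes 3 rose, Rusc1, Tnik and Rap2a, and 1 fell, Sgsm1 (log2 -1.19 ± 0.22), with a median of 0.09. The call of Rusc1 was lost without E14.5 A, without the letter A arrays and with no filter, that of Rap2a without E11.5 C, E14.5 A or the letter A arrays, with the mean of probe sets and after median centring. Centring also ended the Tnik call. Of 14 genes for bMERB proteins and their Rab partners 4 rose, Rab15 (1.24 ± 0.23), Ehbp1, Rab8b and Rab13, and none fell (median 0.23). After median centring the calls of Ehbp1, Rab8b and Rab13 were lost. Micall2 had its highest arrays at E12.5, 159, 155 and 157 against 132 to 151 before and 112 to 128 after, and its fall (-0.38, limma adjusted p = 0.0484) was lost in 14 of 19 alternatives, among them the omission of any 1 of the 9 arrays.

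Markers of other cell types were measured beside the 6 genes, and several of their sums moved with time. Above 90.6 on at least 3 arrays were all measured tendon, cartilage, joint and muscle markers, but 4 of 8 endothelial, 3 of 7 blood and myeloid, 6 of 8 neural and glial and 5 of 10 epithelial markers. The summed signal of 10 cartilage markers was 8550 to 9835 at E11.5 and 13440 to 16910 at E12.5, and at E14.5 it was 50330, 10780 and 5522 on arrays A, B and C. The E12.5 sums were thus above E11.5, above E14.5 B and C, and below E14.5 A. The sums rose from stage to stage for 9 tendon markers (43820 to 46810, 51250 to 59610, 86930 to 108000), 8 joint markers (2673 to 3408, 5037 to 5185, 5836 to 6218) and 8 neural and glial markers (1365 to 1452, 2022 to 2202, 2857 to 3114), with no overlap between stages. A sum mostly reflects the brightest genes of its list. On E11.5 A, with a tendon sum of 46810, Scx had 14811, Col1a2 14558 and Egr1 15290. Egr1 had 1004 on E11.5 B. Single markers of these lists were called as lower at E14.5 than at E11.5: Scx (log2 -0.81 ± 0.22), Dcx of the joint list (-0.66 ± 0.18) and Tubb3 of the neural list (-1.88 ± 0.43). Tubb3 was dim at E14.5 (1.48, 41.0 and 24.8). Its call was lost with the floor at the median of all signals and without the letter A arrays. Sox10, Erbb3 and Elavl4 of the neural list also had lower means, without a call. Ngfr (306 to 1097), Nefl (157 to 961), Stmn2 and Foxd3 had higher ones. The sums of 10 muscle markers (4016 to 6665, 6251 to 11310, 9013 to 12260), 8 endothelial markers (294 to 597, 434 to 708, 1107 to 1480), 7 blood and myeloid markers (294 to 396, 286 to 496, 532 to 622) and 10 epithelial markers (1011 to 1229, 1252 to 1547, 1388 to 1683) overlapped between some stages. Among these, Pax3 (-1.58 ± 0.29) and Krt8 (-0.83 ± 0.25) were called as lower at E14.5 than at E11.5. The Krt8 call was lost in 6 of 17 alternatives.

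Below 22.7 on all 3 arrays of a stage were Ptprc and Esrp1 at E11.5, Tie1, Alas2 and Foxd3 at E12.5, and Tie1 and Fgf8 at E14.5. Of 55 tested markers, Gdf5, the joint interzone ligand gene, and Erbb3, a glial receptor gene, had all E12.5 arrays above the rest, or 3.64% beside 1.43% of all tested genes. So did Fgf8, the ligand gene of the limb's apical ectodermal ridge in the epithelial list, which did not pass the filter: it had 16.9, 3.70 and 33.0 at E11.5, 102, 147 and 89.8 at E12.5, and 9.04, 10.8 and 8.98 at E14.5. Gdf5 had 342, 212 and 474 at E11.5, 1007, 1005 and 1373 at E12.5, and 773, 702 and 372 at E14.5. The part of these cell types in the E12.5 maximum of the 6 genes was not tested. Without E14.5 A, the array with the highest cartilage sum, the second log2 difference was -0.43 for Shisa2, -1.14 for Shisa3, -0.52 for Fhdc1, -0.94 for Prr5l, -0.39 for Rundc3b and -0.83 for Bmerb1. The cartilage sums left at E14.5, 10780 on B and 5522 on C, were themselves below those at E12.5 (13440 to 16910). This omission is therefore no test of a share of cartilage cells.

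**Figure D5:**
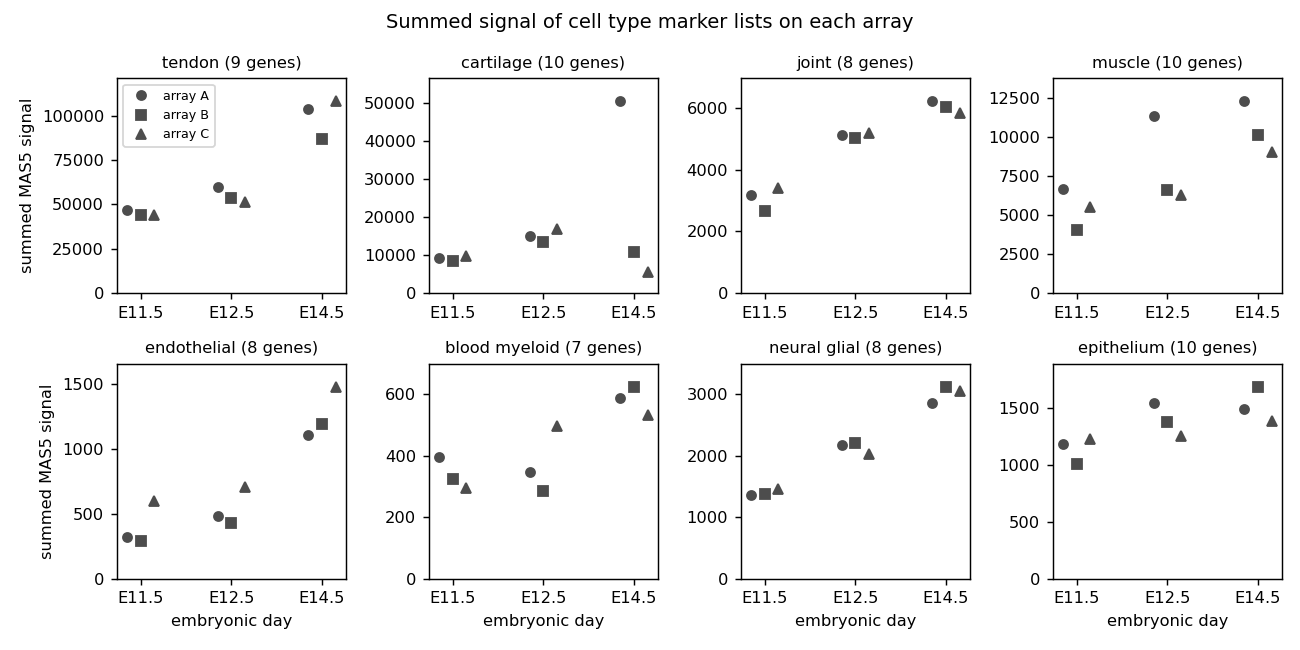
Summed MAS5 signal (linear axes from 0) of 8 lists of cell type markers on each array by embryonic day, with the array letter as symbol and the number of genes in each list in its title. The sums of the tendon, joint and neural glial lists rise at each stage, and the cartilage list reaches 50330 on E14.5 A against 5522 on E14.5 C.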

How the data were processed

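The deposited values are 1 intensity per probe set and array, which the authors computed by MAS5. Per the submitters' processing notes, the program was Affymetrix Expression Console 1.1. All arrays had the same mean after trimming 2% at each end (500.002 to 500.003) and were used as deposited. Of 45101 probe sets, 34945 have 1 gene symbol, updated by gene identifier to the RefSeq table of GRCm38.p6. Where a gene had several probe sets, that of the highest mean log2 value stood for it, with _x_at sets last. Signals under 22.7 (25th percentile) were raised to it before log2 transformation.

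limma 3.58.1 in R 4.3.3 fitted 1 mean per stage to all 9 arrays (6 residual degrees of freedom), with two-sided contrasts and Benjamini-Hochberg adjustment over 11575 genes, or over 20885 probe sets for single sets. Calls were made at an adjusted p under 0.05. Means and SD are of unfloored signals. The fit was also run on simulated data, with changes planted at E14.5 alone and no letter effect, and scored for E14.5 minus E11.5. That run says nothing about a maximum at E12.5.

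The 6 genes and all lists were chosen with earlier results of these data known. Named genes are the 6, the called list genes with the largest change in each direction, those with the highest r or the largest maximum at E12.5, and Scx; a subset is printed. Alternatives were 9 omissions of 1 array and 10 other settings.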

Additional observations from a re-analysis of the deposited data

How the results depend on the processing

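In all 19 alternatives the mean of each of the 6 genes that could be tested was higher at E12.5: the first log2 difference ranged from 0.63 to 1.03 and the second from -1.27 to -0.37 over 113 values each. Single arrays did not always stay apart. Genes with all E12.5 arrays above all E11.5 arrays fell from 6 to 5 after median centring, and those with all E12.5 above all E14.5 arrays from 6 to 4, or to 5 after quantile normalization. Fhdc1 was not tested with the mean of probe sets, which its dim second set brings under the filter. Of the 6 genes 1 was called between E11.5 and E14.5 with the higher floor, quantile normalization, the trended and robust prior and array weights, and in the latter 2 settings 1 probe set was. The difference of Bmerb1, not called in any setting, changed sign to 0.01 on omitting E11.5 A, 0.06 on omitting E11.5 C, 0.0041 on omitting E14.5 C, and 0.06 when all letter A arrays were omitted.

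With the letters as a replicate block, 0 of the 6 genes were called between E11.5 and E14.5. Deviations of same-letter arrays had r from 0.310 to 0.520 for letter A, 0.238 to 0.332 for C and -0.00516 to 0.133 for B. Arrays of letters A and C thus deviated in part alike across stages. The main fit treated the arrays as unpaired, and only the block takes the letters into account. Of the 91 related genes, those higher at E12.5 than at E11.5 numbered 2 in the report, 1 with no filter, without the letter A arrays and with the mean of probe sets, 0 after quantile normalization or median centring, 5 with array weights, and 0 to 3 with 1 array left out. Those lower numbered 1, with 0 under the higher floor, no filter, the robust prior and without the letter A arrays, 2 with the block, and 0 to 1 with 1 array left out. From E12.5 to E14.5, 17 rose, but 7 after median centring, 10 with the mean of probe sets and 10 without the letter A arrays, and 7 fell, but 3 with no filter or the mean of probe sets, 2 without the letter A arrays, 1 after median centring, and 1 to 5 with 1 array left out. From E11.5 to E14.5, 25 rose, but 14 after median centring, and 7 fell, with 4 to 8 when 1 array was left out. Signals near the floor, such as those of the second Fhdc1 set, limit what can be seen.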
